A study of Mus musculus with 5 samples.

Results

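The genes described here are 34 regulators of position along the body and foregut: homeobox genes of the Hox, Irx, Pitx, Isl, Barx, Meis and Nkx families, the paired-box gene Pax9, T-box genes and members of the Six-Eya group. They were chosen by name, as all probe sets of the array that the platform annotation assigns to 1 of these genes alone. Of the 34 genes, 33 had such a probe set, 62 in all, out of 18193 genes and 45037 probe sets on the array that are not controls. Hoxd4 had none, because both probe sets that list it also list Hoxd3. The arrays came from C57BL/6 mice of both sexes aged 8 to 12 weeks, and each of the 5 samples was cells sorted from its own pool of 10 to 15 animals. Basal cells (2 arrays) came from dispase-digested surface epithelium of the lower part of the trachea and were sorted with ITGA6 among the antigens. Duct cells (3 arrays) came from the upper part, sorted without ITGA6 from tissue left after pronase had taken off the surface epithelium. Lower against upper trachea is therefore also basal against duct cell, dispase against pronase and one sort gate against another, and these cannot be told apart.

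Hox genes lie in separate clusters, and the order of the genes along a cluster follows the order of their expression along the body axis. Hox proteins bind DNA together with TALE homeodomain partners such as the Meis and Pbx proteins, and retinoic acid acts upstream of several Hox genes. Irx proteins are also TALE homeodomain factors. Six-family proteins bind DNA and Eya proteins are their transcriptional partners, and both act in pharyngeal organs and glands. Tbx4 and Tbx5 pattern the lung bud and its mesenchyme, and Tbx1, Pax9 and Hoxa3 act in the pharyngeal pouches from which thymus and parathyroid form.

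In duct cells the adjacent genes Hoxc4 and Hoxc5 and the cofactor gene Meis2 were brighter than in basal cells, by 1.99, 2.53 and 1.34 on the log2(intensity + 16) scale. Irx1, Irx2, Hoxb3, Hoxb5 and Eya2 were dimmer, by differences from -1.49 for Irx1 to -1.15 for Eya2. These 8 are the members with an unadjusted limma p under 0.05 and a difference of 1 or more in size, picked with their values known. Hoxa5 had such a p but a difference of -0.81. On the brightest probe set of each of the 8 the 2 groups did not overlap, which is no separate support. Other tested probe sets of Hoxc5 and Meis2 did overlap. None of the 8 genes passed the test over all genes: limma called 0 of 26 tested members higher and 0 lower at an adjusted p under 0.05. The smallest adjusted p was 0.0685, for Hoxc4. Over all 12554 tested genes 103, or 0.82%, were called higher and 15, or 0.119%, lower, which is 0.94% in either direction. Before adjustment 3 members were higher with p under 0.05 and 6 were lower, against 7.85% and 10.6% of all tested genes. The arrays of the 2 groups did not overlap in 15 of the 26 members, 4 higher and 11 lower in duct cells, against 16.6% higher and 22.8% lower (39.3% in either direction) over all tested genes. A log2 difference of 1 or more in size was measured in 10 of the 26 members, 4 higher and 6 lower, and in 16.3% of all tested genes. With the 42 brighter probe sets of the members as units, limma again called 0, against 0.204% of all tested probe sets. The median log2 difference was -0.51 over the 26 members and -0.13 over all tested genes. These 2 medians were -0.35 and -0.05 after quantile normalization, and -0.31 and 0.08 after centring by array medians. Without duct replicate 1 they were -0.24 and -0.06.

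The differences are between duct and basal means of log2(intensity + 16), which understates the change of dim genes. Where a gene had several probe sets, the brightest by its mean over the 5 arrays was tested. Intensities are in arbitrary units and compare arrays for 1 probe set, never 1 gene with another. With no detection calls to use, a probe set counted as above background on an array where it exceeded the brightest of 27 probe sets for Bacillus transcripts, at 39.5 to 86.5 on the 5 arrays. A gene was above it where any of its probe sets was, and by that measure 20 of the 33 members were above background on all 5 arrays, 10 on some and 3 on none. Duct replicate 1 stood apart: its median probe set was at 92.3, while the medians of the other 4 arrays lay between 147 and 153. Each SE rests on 2 basal and 3 duct arrays, and this small number limits the precision. The variance behind each SE was also moderated by limma with the variances of all tested genes.

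**Figure D1:**
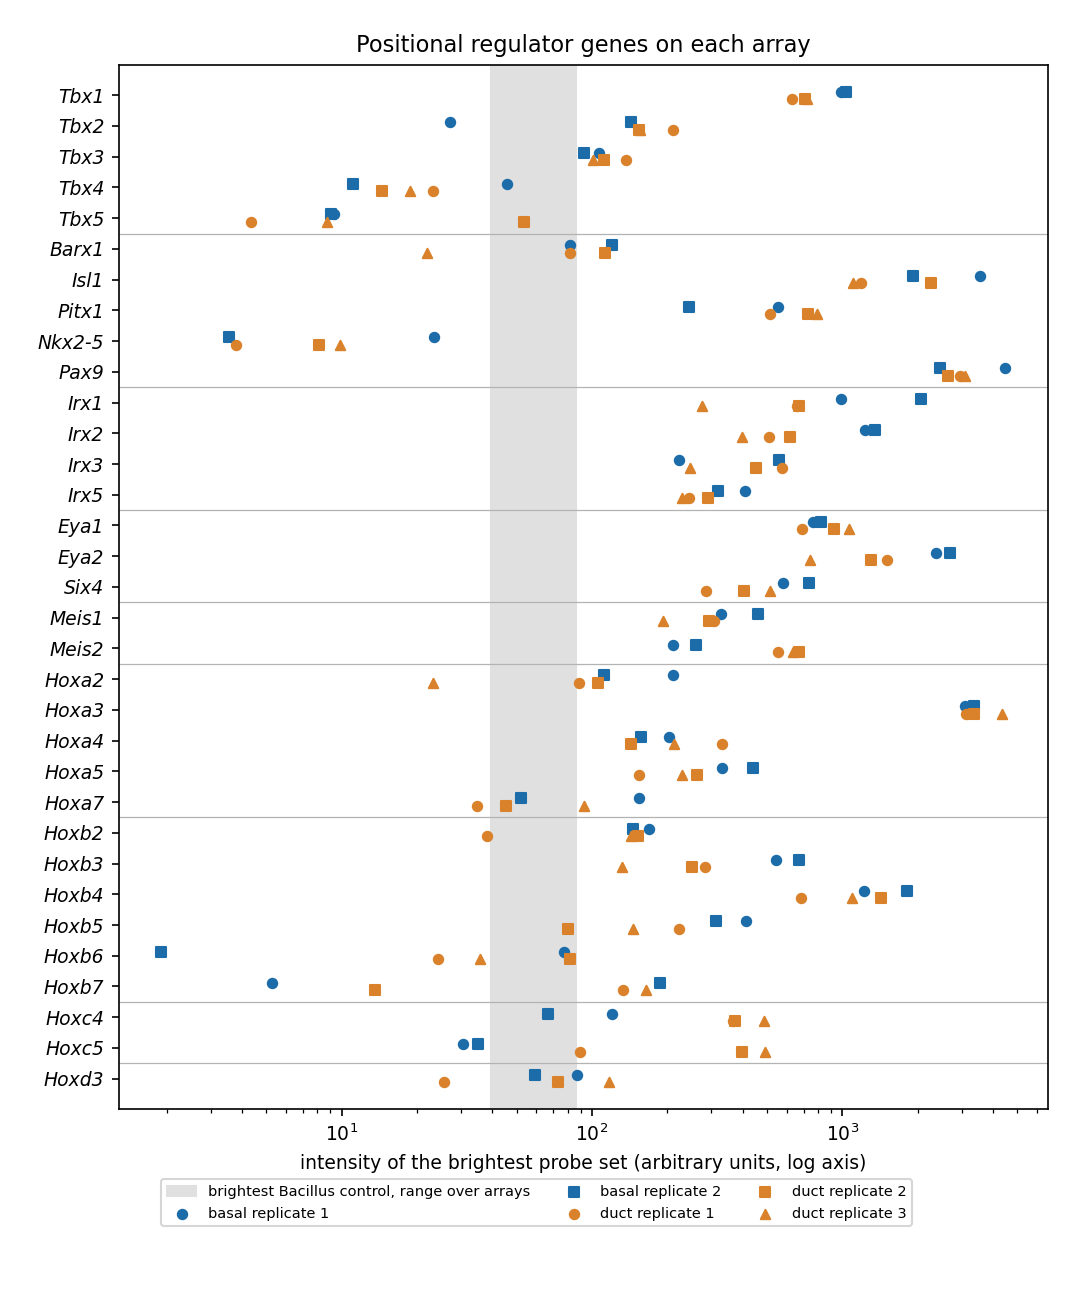
Intensity of the brightest probe set (arbitrary units, log axis) of each of the 33 genes on the 2 basal (blue) and 3 duct (orange) arrays, 1 point per array, with the grey band from 39.5 to 86.5 covering the brightest Bacillus control of each array. Hoxc4, Hoxc5 and Meis2 lie to the right on all 3 duct arrays, Irx1, Irx2, Eya2, Hoxb3 and Hoxb5 to the left, and Tbx4, Tbx5 and Nkx2-5 lie within or below the band.

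Of 15 Hox genes 14 had a probe set and 11 were tested; both Hoxc genes were positive and 4 of 5 Hoxb genes negative, with 2 of 4 Hoxa genes on each side. Hoxc4 measured 120.3 and 66.4 among basal and 365, 372 and 485 among duct replicates. All 3 duct arrays were above both basal arrays, and basal replicate 2 was below its brightest Bacillus control (log2 difference 1.99, SE 0.32, limma adjusted p = 0.0685). Hoxc5, the next gene along the cluster, measured 30.4 and 34.9 (basal) against 89.9, 396 and 493 (duct) on its brightest probe set. On both basal arrays this probe set was below the brightest control, so that it was at least 3.62-fold higher in duct cells, taking the control level as the floor of each basal array and means of log2 values (log2 difference 2.53, SE 0.71, limma adjusted p = 0.158). Duct replicate 1 was the lowest of the duct arrays, so leaving it out could only raise the difference. Without it the difference was 3.24 and passed the test (adjusted p = 0.0399 with limma). Without duct replicate 2 or 3 it was 2.26 or 2.10 and did not pass (limma adjusted p = 0.278 and 0.299). Probe sets were tested if their mean over the arrays passed 97.2. Both basal values were below that level, so only the duct arrays brought this probe set of Hoxc5 into the test. Hoxc4 also entered the test through the duct arrays, with a basal mean of 93.4 and a duct mean of 407. A second tested probe set of Hoxc5 measured 35.1 and 99.95 in basal samples against 89.4, 187 and 136 in duct samples, a difference of 0.95 in which basal replicate 2 lay above duct replicate 1.

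The call for Hoxc4 and Hoxc5 changed with the processing. Hoxc4 passed with quantile normalization (adjusted p = 0.0446 with limma), and both genes passed with median-centred arrays (limma adjusted p = 0.0175 and 0.0108). Hoxc4 also passed with a pseudocount of 64, with a stricter filter (the dimmest 60% left out) and with a trend and robust fit. Over all the alternatives in which it was fitted, the adjusted p of Hoxc4 ran from 0.0175 to 0.336 and that of Hoxc5 from 0.0108 to 0.455. Hoxc6, the neighbour of Hoxc5 on its other side, was picked with its values known and gave 111 and 187 among basal and 15.0, 101 and 172 among duct replicates. Its groups overlapped (-0.87, limma adjusted p = 0.599), and the next gene, Hoxc8, picked likewise, was above background on 1 basal and 2 duct arrays.

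Hoxb3 and Hoxb5, of the anterior part of their cluster, were dimmer in duct cells without overlap. Hoxb3 measured 544 and 673 (basal) against 283, 252 and 132 (duct) on its brightest probe set (log2 difference -1.44, SE 0.38, limma adjusted p = 0.143). Its other probe set measured 613 and 337 in basal samples against 103, 129 and 158 in duct samples, a difference of -1.71 (adjusted p = 0.15 in limma's fit over probe sets). On both probe sets each duct array was below each basal array. Hoxb5 measured 414 and 314 among basal and 222, 80.2 and 145 among duct replicates (log2 difference -1.29, SE 0.43, limma adjusted p = 0.213), again without overlap. Hoxb4 measured 1226 and 1818 (basal) against 683, 1421 and 1097 (duct), and duct replicate 2 lay between the basal arrays (log2 difference -0.54, SE 0.39, limma adjusted p = 0.51). Its difference was -0.25 without duct replicate 1, -0.26 without basal replicate 2 and -0.82 without basal replicate 1. The dimmer probe set of Hoxb4 did separate the groups, at 337 and 291 in basal samples against 194, 181 and 112 in duct samples. Hoxb2 measured 38.0 on duct replicate 1, under that array's controls, and 143 to 169 on the other 4 arrays. Its difference was -0.62, and -0.0828 without that array.

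In the Hoxa cluster the probe sets of Hoxa3 and of Hoxa4 disagreed, and those of Hoxa5 went the same way. Hoxa3, which acts in pharyngeal pouch development, measured 3101 and 3362 among basal and 3119.9, 3369.8 and 4347 among duct replicates on its brightest probe set, with overlapping groups (log2 difference 0.15, SE 0.26, limma adjusted p = 0.798). A second probe set, of the kind that can also detect related transcripts, measured 601 and 468 (basal) against 226, 211 and 227 (duct) and gave -1.20 (adjusted p = 0.156 in the fit over probe sets). A dim probe set of the same gene went the other way, with 10.98 and 12.1 in basal samples against 118, 98.1 and 79.1 in duct samples and it was too dim to test. With the mean of its tested probe sets Hoxa3 was at -0.53. Hoxa5, which is needed for normal trachea and lung formation in the mouse, measured 331 and 440.1 among basal and 154, 264 and 229 among duct replicates, lower on every duct array (log2 difference -0.81, SE 0.32, limma adjusted p = 0.262). Its second probe set, which may cross-hybridise, measured 389.6 and 247 (basal) against 88.1, 94.8 and 73.8 (duct), a difference of -1.69. Hoxa2 measured 210.4 and 112 in basal samples against 88.6, 106 and 23.3 in duct samples, and duct replicate 3 was below its controls (log2 difference -1.10, SE 0.58, limma adjusted p = 0.37). Its difference was -0.59 without duct replicate 3 and -0.69 without basal replicate 1. Hoxa4 was at 0.26 on a probe set that may cross-hybridise and at -0.37 on its other one, so its direction was not settled.

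**Figure D2:**
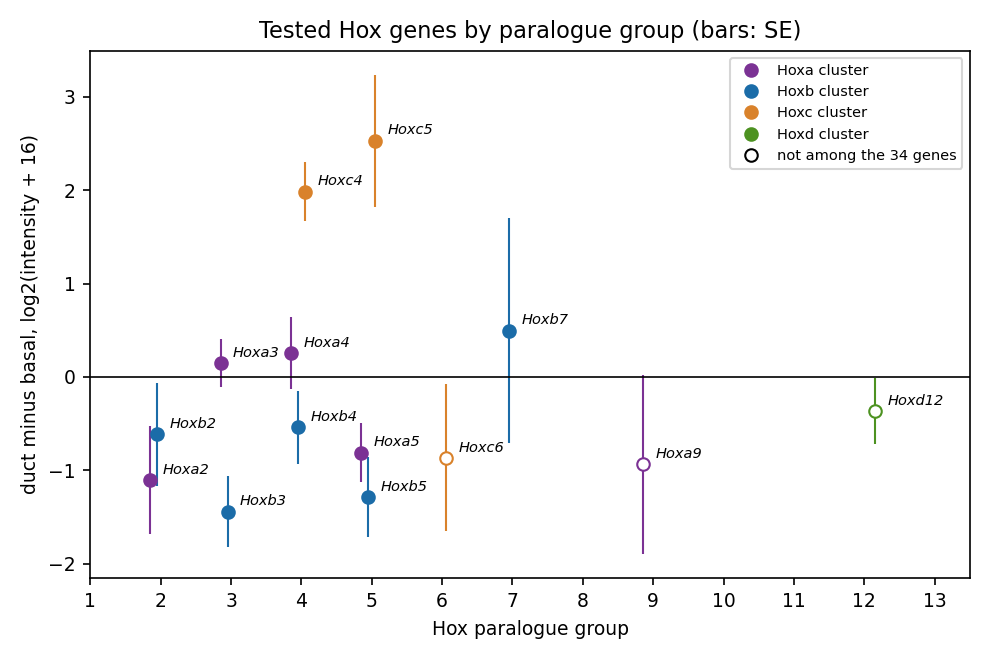
Log2 difference (duct minus basal, bars SE) of the 14 tested Hox genes against their paralogue group number, coloured by cluster, with genes outside the 34 as open circles. Hoxc4 and Hoxc5, at 1.99 and 2.53, stand above their paralogues of the a and b clusters in groups 4 and 5, which run from -1.29 to 0.26.

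Other Hox genes were near background. Hoxa7, Hoxb6 and Hoxd3 were above background on 2, 2 and 3 arrays and were too dim to test, and Hoxb7 was tested but measured 5.27 and 187 among basal and 133, 13.6 and 165 among duct replicates, so that its spread within either group was larger than its difference. Of 19 further Hox genes with a probe set, 1 was above background on all 5 arrays and 3 on none. The dim ones included the anterior genes Hoxb1, above background on 2 duct arrays, and Hoxd1, above it on none, both picked with their values known. Of the 19, 3 were tested and 0 called with limma (0 at an unadjusted p under 0.05), and all 3 differences were negative. The brightest of them, Hoxa9 and Hoxd12, measured 16.6 to 305 and 92.2 to 199 over the 5 arrays, with overlapping groups.

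The 2 Meis genes encode Hox cofactors. Meis2 measured 211 and 261 (basal) against 555, 673 and 637 (duct) (log2 difference 1.34, SE 0.24, limma adjusted p = 0.0804), and the lowest duct array was above the highest basal array by more than the range of either group. Of its 4 probe sets 2 were tested. The other tested one, which may cross-hybridise, measured 385 and 318 in basal samples against 323, 717 and 485 in duct samples, with overlapping groups and a difference of 0.45. With the mean of both, Meis2 was at 0.89 (adjusted p = 0.188 with limma). Meis1 measured 328 and 459 among basal and 306, 292 and 193 among duct replicates, lower on each duct array (log2 difference -0.56, SE 0.31, limma adjusted p = 0.402). Its difference was -0.33 without basal replicate 2 and -0.36 without duct replicate 3. The other tested probe set of Meis1 measured 148 and 164 in basal samples against 101, 179 and 137 in duct samples, with overlapping groups and a difference of -0.17. Of 8 other TALE genes tested, 0 were called with limma, and at an unadjusted p under 0.05, 2 were positive and 1 negative. Tgif1, a TALE repressor, measured 1895 and 1869.7 (basal) against 3454, 3319 and 3242 (duct) (0.82, limma adjusted p = 0.15), and Pbx2, a Hox partner, measured 2394 and 2566 in basal samples against 1099.9, 1883 and 1202 in duct samples (-0.86, limma adjusted p = 0.237).

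Promoter sequences are shown for 2 of the genes brighter in duct cells, Hoxc4 and Meis2, and for 2 of those brighter in basal cells, Irx2 and Hoxa5, so that genes on either side of the comparison can be read side by side. Each is the 250 bases before the start site that RefSeq's table gives (GRCm38.p6), written 5′ to 3′ on the gene's strand. Capitals mark matches on either strand to any of 5 motifs: TGATNNAT (a Hox-Pbx site), TAATTA (a homeodomain core), TGACAG (Meis), AGGTGTGA (T-box) and AGGTCA (a nuclear receptor half-site, as in retinoic acid response elements). No overlap between motifs occurred in these windows. Hoxc4 lies at chr15:103034145-103034394, plus strand, Meis2 at chr2:116064620-116064869, minus strand, Irx2 at chr13:72628570-72628819, plus strand and Hoxa5 at chr6:52204588-52204837, minus strand.
Hoxc4: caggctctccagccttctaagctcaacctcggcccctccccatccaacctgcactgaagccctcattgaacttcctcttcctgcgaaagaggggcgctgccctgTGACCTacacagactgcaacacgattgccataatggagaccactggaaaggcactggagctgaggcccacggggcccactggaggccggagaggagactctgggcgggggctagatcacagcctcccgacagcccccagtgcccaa
Meis2: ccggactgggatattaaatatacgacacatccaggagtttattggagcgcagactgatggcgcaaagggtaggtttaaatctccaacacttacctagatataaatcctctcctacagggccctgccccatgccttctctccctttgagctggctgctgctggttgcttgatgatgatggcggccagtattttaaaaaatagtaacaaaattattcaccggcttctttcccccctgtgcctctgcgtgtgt
Irx2: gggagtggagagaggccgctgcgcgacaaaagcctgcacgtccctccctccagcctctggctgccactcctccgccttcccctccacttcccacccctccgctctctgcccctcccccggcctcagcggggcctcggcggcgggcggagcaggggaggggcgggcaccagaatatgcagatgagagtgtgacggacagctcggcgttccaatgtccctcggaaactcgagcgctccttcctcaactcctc
Hoxa5: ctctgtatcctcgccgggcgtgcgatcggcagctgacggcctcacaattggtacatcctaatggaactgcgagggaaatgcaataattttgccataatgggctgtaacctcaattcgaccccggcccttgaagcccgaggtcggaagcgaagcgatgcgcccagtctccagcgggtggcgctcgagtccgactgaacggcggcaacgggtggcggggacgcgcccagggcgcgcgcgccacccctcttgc
Only the Hoxc4 window held a match, the complement of AGGTCA from 146 to 141 bases before the start. That motif was found in 14% of 32851 such windows, TGACAG in 15.9%, TGATNNAT in 7.68%, TAATTA in 4.84% and AGGTGTGA in 1.12%. Of 19 members with a window, 4 held AGGTCA, 4 TGACAG, 1 TGATNNAT and 0 each of the other 2 motifs. G and C made up 62.0% of the Hoxc4, 47.6% of the Meis2, 68.4% of the Irx2 and 63.6% of the Hoxa5 window, against a median of 52.4% over all windows. A match of letters is no evidence of binding, and other start sites of these genes were not searched.

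The Irx genes form 2 clusters, and the pair Irx1 and Irx2, which are neighbours, was dimmer in duct cells. Irx2 measured 1228 and 1354 among basal and 511, 619.6 and 396 among duct replicates (log2 difference -1.34, SE 0.28, limma adjusted p = 0.0996). The groups were well apart, and the difference stayed between -1.49 and -1.17 when any 1 array was left out. Irx1 measured 984 and 2061 (basal) against 657, 671 and 275 (duct) (log2 difference -1.49, SE 0.53, limma adjusted p = 0.227). The basal arrays differed from each other by more than the gap between the lower of them and the nearest duct array, and the log2 difference was -2.02 without basal replicate 1 and -0.96 without basal replicate 2. In the other cluster, Irx3 measured 222 and 560.1 in basal samples against 572, 452 and 246 in duct samples, with overlapping groups, and Irx5 408 and 319 among basal and 244, 289.9 and 229 among duct replicates, lower on each duct array (log2 difference -0.49, SE 0.25, limma adjusted p = 0.37). The difference of Irx5 was -0.32 without basal replicate 1.

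Of the Six-Eya genes, Eya2, a transcriptional partner of Six-family proteins, measured 2370.2 and 2689 (basal) against 1501, 1298 and 744 (duct) (log2 difference -1.15, SE 0.36, limma adjusted p = 0.198). Every duct array was below both basal arrays, and duct replicate 3 was the lowest. Six4 measured 579 and 739 in basal samples against 285, 403 and 515 in duct samples on its brightest probe set, without overlap (log2 difference -0.72, SE 0.33, limma adjusted p = 0.312). Of its other tested probe sets, one measured 538 and 571 among basal and 273, 364 and 375 among duct replicates, again without overlap, and one that may cross-hybridise measured 466 and 684 (basal) against 242, 424 and 559 (duct), with overlap. Eya1, which is needed for pharyngeal organs, measured 764 and 823 in basal samples against 688, 928 and 1068 in duct samples on its brightest probe set (log2 difference 0.15, SE 0.28, limma adjusted p = 0.811). Its other tested probe sets were at -0.36 and -1.36, so the direction depended on the probe set. Of 6 further genes of the Six-Eya-Dach group tested, all 6 differences were negative, with a median of -0.45; limma called 0, and 2 were lower at an unadjusted p under 0.05. Six2 measured 1955 and 1406 among basal and 978, 1569.7 and 1083 among duct replicates, with overlapping groups, and Eya3 347 and 479 (basal) against 176, 373 and 415 (duct). The 2 genes at the unadjusted threshold, Eya4 and Dach1, were picked with their values known and were at -1.35 and -0.99.

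T-box genes showed small differences or were dim. Tbx1, a pharyngeal regulator, measured 992 and 1037 in basal samples against 628, 712 and 722 in duct samples, lower on each duct array (log2 difference -0.55, SE 0.23, limma adjusted p = 0.277). Tbx2, which acts in lung growth, measured 27.2 and 144 among basal and 209.8, 153 and 156 among duct replicates (log2 difference 1.17, SE 0.57, limma adjusted p = 0.343). The groups did not overlap, but basal replicate 1 was below its controls, and the difference was 0.23 without that array and 2.12 without basal replicate 2. Tbx3 measured 107 and 93.2 (basal) against 137, 112 and 101 (duct), with overlapping groups and a difference of 0.19. The lung bud genes Tbx4 and Tbx5 were below background on all 5 arrays by all 4 of their probe sets, at 1.86 to 53.3. Of 4 other T-box genes tested, 0 were called with limma (0 at an unadjusted p under 0.05) and all 4 were negative. Mga measured 592 and 545 in basal samples against 516, 525 and 349.9 in duct samples and Tbx15 305 and 189.8 among basal and 86.7, 243 and 216 among duct replicates (limma adjusted p = 0.601 and 0.635).

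Among the pharyngeal and foregut genes, Pax9, which marks pharyngeal and oral epithelium, was bright in both groups, at 4477 and 2459 (basal) against 2962, 2629.6 and 3088 (duct). Its 3 probe sets gave differences from -0.20 to 0.11, and the 95% interval of the brightest was -1.02 to 0.61. Isl1, a LIM homeobox gene of foregut and pharyngeal mesoderm, measured 3543 and 1923 in basal samples against 1187, 2249 and 1099 in duct samples on its brightest probe set (log2 difference -0.86, SE 0.45, limma adjusted p = 0.367), with overlapping groups. Its difference was -0.42 without basal replicate 1 and -1.30 without basal replicate 2. Its other probe set went the other way, at 0.31, so no direction was settled. Pitx1, a homeobox gene of the oral region and hindlimb, measured 553 and 243 among basal and 514, 726 and 790.2 among duct replicates (log2 difference 0.83, SE 0.42, limma adjusted p = 0.356), and basal replicate 1 was above duct replicate 1. Without basal replicate 1 its difference was 1.39, and without basal replicate 2 it was 0.26. Barx1, a gene of stomach and oesophageal mesenchyme, measured 81.3 and 120.2 (basal) against 81.4, 112 and 21.9 (duct) and was too dim to test. Nkx2-5, a cardiac and pharyngeal gene, was below background on all 5 arrays, at 3.55 to 23.3.

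**Figure D3:**
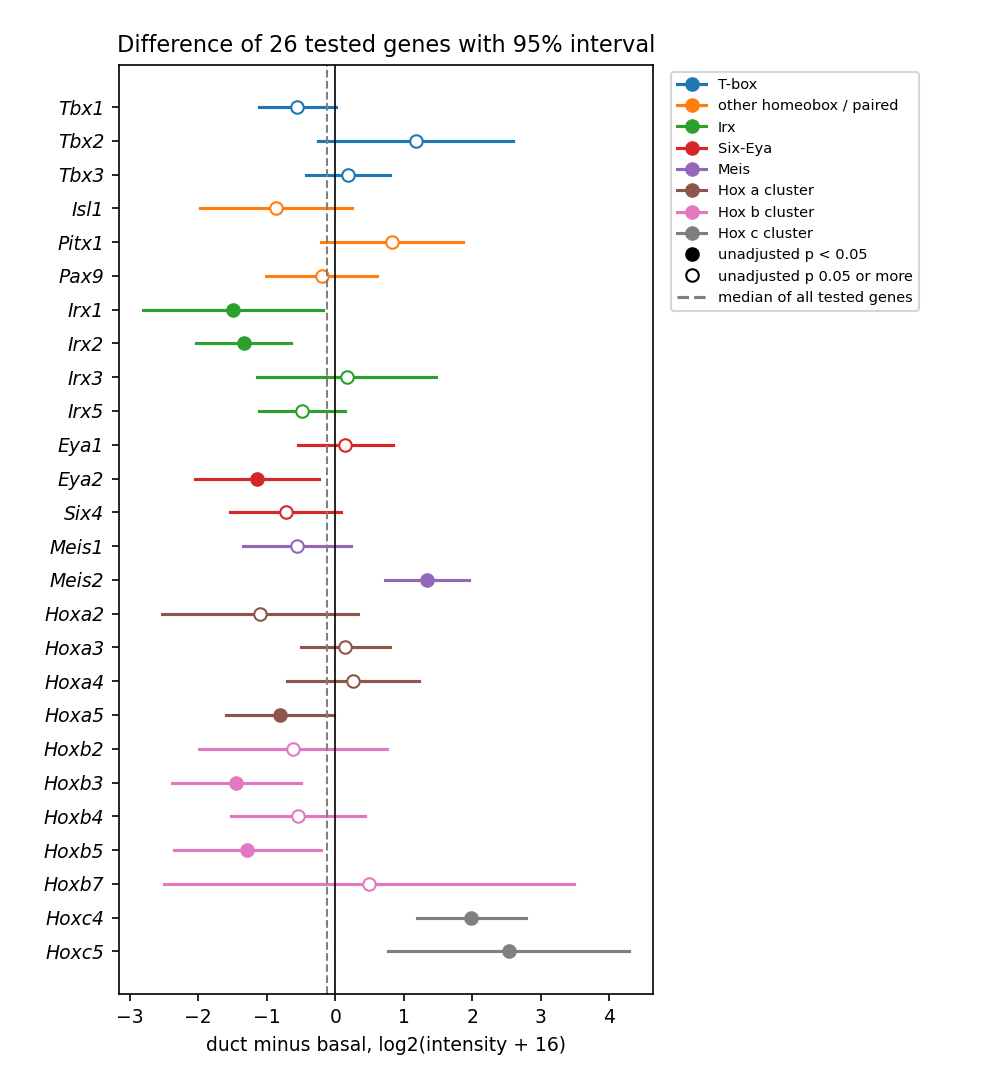
Log2 difference (duct minus basal) with its 95% interval for the 26 tested genes, coloured by family, filled where the unadjusted p was under 0.05; the dashed line is the median of all tested genes, -0.13. The filled points are 3 to the right (Hoxc4, Hoxc5, Meis2) and 6 to the left, from Irx1 at -1.49 to Hoxa5 at -0.81.

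Relatives of these genes outside the 34 were tested alongside. Of 9 other Irx, Pax, Barx and Nkx genes tested, 0 were called with limma and 1 was higher at an unadjusted p under 0.05, with a median of 0.03. That gene was Pax1, a paralogue of Pax9 that acts in the pharyngeal pouches, which measured 107 and 134 in basal samples against 211, 392 and 299 in duct samples (1.18, limma adjusted p = 0.157), with every duct array above both basal arrays. Nkx2-3 measured 259 and 259.6 among basal and 181, 198 and 179 among duct replicates (-0.45, limma adjusted p = 0.348). Of 6 other homeobox genes of pharynx and foregut tested, 0 were called (0 at an unadjusted p under 0.05), and most of this list was near background: 1 of 19 was above it on all 5 arrays. Dlx4 measured 93.3 to 216 and Cdx2 38.0 to 218 over the 5 arrays.

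Genes of the signals that set positional genes in the embryo, retinoic acid, FGF and hedgehog, gave 0 of 15 tested genes called with limma, with 1 gene of each sign at an unadjusted p under 0.05 and a median of -0.22. Aldh1a1, an enzyme of retinoic acid synthesis, measured 14184 and 16875 (basal) against 11780.0, 10588 and 9754 (duct), lower on each duct array (-0.53, limma adjusted p = 0.311). Fgfr2, a receptor of epithelial FGF signals, measured 10261 and 10580.3 in basal samples against 9676, 10014 and 10294 in duct samples, a difference of -0.06. The genes at that threshold, picked with their values known, were Aldh1a3, a second enzyme of retinoic acid synthesis, at 113 and 129 among basal and 993, 351 and 440.2 among duct replicates (2.02, limma adjusted p = 0.12), and Dhrs3, a retinal reductase, at 3809.6 and 4628 (basal) against 2311, 1982 and 1431 (duct) (-1.16, limma adjusted p = 0.14). The groups did not overlap in either gene.

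**Figure D4:**
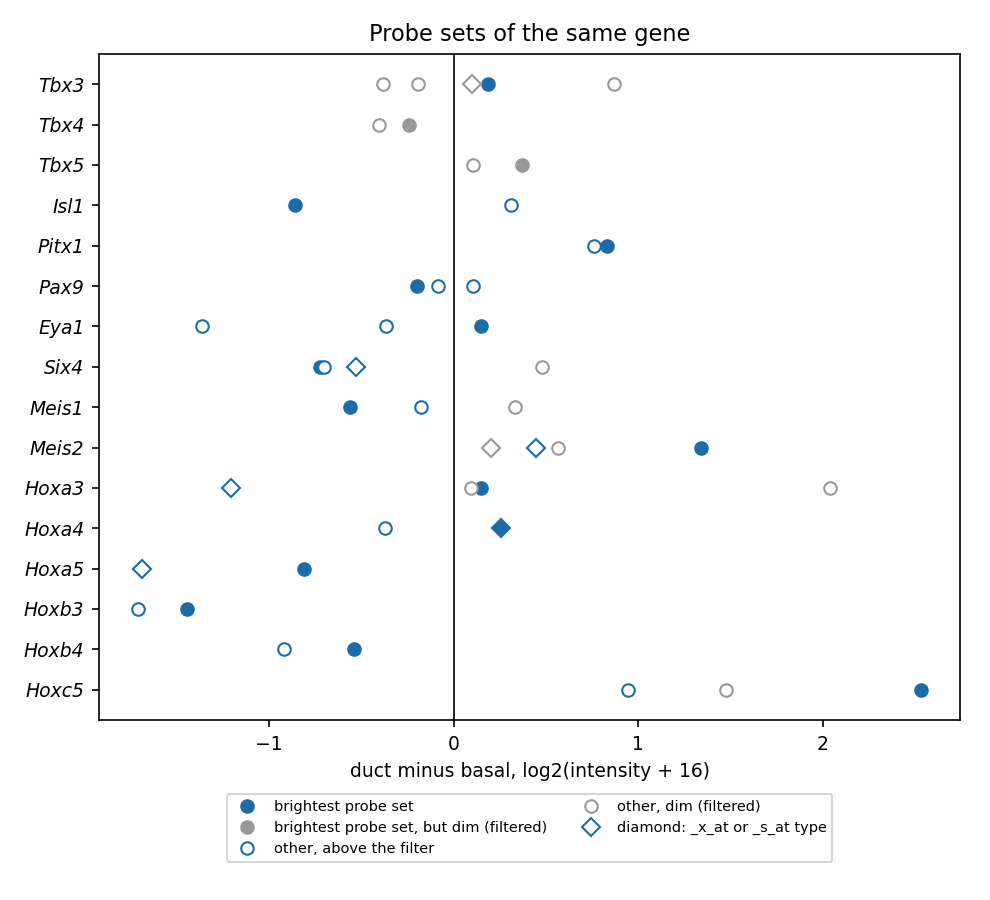
Log2 difference (duct minus basal) of every probe set of the 16 genes with more than 1, with dim probe sets in grey and those that may cross-hybridise as diamonds. Both tested probe sets of Hoxb3, Hoxb4, Hoxa5, Hoxc5, Meis1, Meis2 and Pitx1 lie on 1 side of 0, whereas tested probe sets of Hoxa3, Hoxa4, Isl1, Eya1 and Pax9 lie on both.

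Markers of epithelium and of other cells were read in the same arrays. Of 11 epithelial and basal cell markers 9 were above background on all 5 arrays, all but Nkx2-1 and Foxa2. Krt15 and Krt5 measured 20212 to 24876 and 11617 to 19821, and Krt14 was called higher in duct cells (3.78, limma adjusted p = 0.00761). Of the 10 tested, 5 were positive and 5 negative, with 2 positive and 3 negative at an unadjusted p under 0.05. The negative ones, picked with their values known, included Ngfr at -1.76, Sox2 at -1.16, Foxa1 at -0.65 and Trp63 at -0.33, none past the test (limma adjusted p = 0.0845, 0.118, 0.251 and 0.498) and each lower on every duct array. Trp63 was not among the 3 at the unadjusted threshold. Beside Krt14, the positive ones included Krt5 at 0.60, Cdh1 at 0.51 and Krt15 at 0.14, each higher on every duct array (limma adjusted p = 0.255, 0.312 and 0.788). No marker fixed here defines a duct cell, so that label was not checked. Like Hoxc4, Hoxc5 and Meis2, thyroid markers were brighter in duct cells. The thyroid and parathyroid list summed over 7 genes to 265 and 259 in basal samples against 9384, 16648 and 21152 in duct samples. Most of the duct sum came from Tg. All 4 tested genes of the list were positive, and all are thyroid genes. The parathyroid hormone gene Pth was above background on duct replicate 1 alone. Tg, thyroglobulin, measured 11.1 and 53.2 among basal and 8779, 16062 and 20119 among duct replicates, below the controls on both basal arrays. With those controls as the floor Tg was at least 197-fold higher in duct cells, again without allowance for spread (limma adjusted p = 0.00761). Slc5a5, the iodide transporter, measured 52.9 and 118 (basal) against 172, 181 and 338 (duct), while Slc26a4 was not above background on any array. The endothelial and leukocyte list summed to 6372 and 17637 in basal samples against 20686, 13375 and 20029 in duct samples, with overlapping groups. Most of each sum came from Lyz2, at 5374 and 16327 (basal) against 19517, 12275 and 18187 (duct), and Ptprc measured 254 to 1100. Of the 4 tested genes of this list, 0 had an unadjusted limma p under 0.05. Kdr and Tek, 2 of its 11 genes, were not above background on any array, and Dll4, of the thymic list, was likewise on none. The part of these cells in the differences of Hoxc4, Hoxc5, Meis2 and Pax1 was not tested.

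The mesenchyme and cartilage list summed to 4494 and 5572 among basal and 3447, 6701 and 5998 among duct replicates, with overlapping groups. Dcn measured 3106 and 4090.0 (basal) against 1519.6, 3123 and 2524 (duct), Sox9, which is also a gene of gland epithelium, 54.5 and 227 in basal samples against 1135, 1432 and 1024 in duct samples (3.20, limma adjusted p = 0.0758), and Col6a3 and Thy1 were not above background on any array. The muscle list summed to 1373 and 911 among basal and 724, 1378 and 1221 among duct replicates, also overlapping, and Des, Acta1, Tnnt3, Myh4 and Myf5 were not above background on any array. Its brightest genes, Acta2 and Ckm, had differences of 1.499 and -0.996. The smooth muscle gene Myh11, picked with its values known, was lower on each duct array, with 357 and 289 in basal samples against 13.6, 80.7 and 30.7 in duct samples (-2.72, limma adjusted p = 0.0879). Its direction was that of Irx1, Irx2, Hoxb3, Hoxb5 and Eya2, and the part of smooth muscle cells in their differences was not tested. Acta2, also a smooth muscle gene, went the other way, with 119 and 142 in basal samples against 316, 429 and 459 in duct samples. The thymic list summed to 409 and 602 (basal) against 332, 331 and 444 (duct); its chemokine Ccl25 had a difference of -1.29 and its defining factor Foxn1 one of -0.08, neither past the test. The nerve and neuroendocrine list summed to 898 and 256 in basal samples against 461, 344 and 669 in duct samples, and Syp and Sox10 had differences of 0.84 and -0.27. In bulk samples, fewer cells of a type and less RNA per cell cannot be told apart.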

How the data were processed

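RNA from the 5 samples was hybridised to an Affymetrix mouse 3′ expression array, per the labels. The authors deposited 1 linear intensity per probe set and array and scaled each array, as the values show: trimming 2% of probe sets at either end leaves a mean of 500.0 on every array. How probe sets were summarised, with which background correction and software, is not given in the sources used here.

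Probe sets were named from the platform annotation (34945 with 1 symbol, 932 with several, 9160 with none). The lowest 40% of probe sets by mean over all arrays were left out, which left 12554 genes, each by its brightest probe set; 42 of the 62 probe sets and 26 of the 33 genes described passed. Log2(intensity + 16) was fitted with limma 3.58.1 in R 4.3.3 (lmFit, eBayes) without covariates, 2-sided, with Benjamini-Hochberg adjustment over all genes; a second fit took 27022 probe sets as units. All adjusted p-values are limma's. Both fits use 3 residual degrees of freedom, to which limma's moderation of the variance added 2.60 prior ones in the fit over genes. The fit was tested on simulated data with 200 changed genes in each of 10 draws. At an adjusted p under 0.05, limma recovered 0.448% of log2 changes of 1, 34.8% of those of 2 and 79.5% of those of 4. Of its calls 4.64% were false. In the simulation most changes of 1 or 2 were therefore missed. Its noise was normal and independent, with the SDs shuffled over genes. It thus held no link of spread to intensity and no array-wide shift, and the rates for the real arrays can differ. Alternatives changed the scaling, pseudocount, filter, choice of probe set, variance model, replicate block and the arrays included. Members described with every array were those with an unadjusted p under 0.05, or with groups apart and a difference of 1 or more, or among the 6 brightest; arrays of other members were added with their values known. Of each further list the 2 brightest genes and any called were named. The members and lists were chosen with earlier results of these data known. Replicate numbers were not taken as pairs, since each sample was its own pool and the labels name no pairs. One sort antigen is not reported here. Figures were drawn with matplotlib 3.10.9.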

Additional observations from a re-analysis of the deposited data

How the results depend on the processing

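Limma called 0 of the 26 members on either side in the reported fit, 0 of 33 with no filter, and 0 with a pseudocount of 1, with the mean of probe sets, without probe sets that may cross-hybridise, with the replicate block and with probe sets as the unit. With quantile normalization 1 member was called higher (Hoxc4), with median centring 2 (Hoxc4, Hoxc5), with a pseudocount of 64 1 (Hoxc4) and with the lowest 60% left out 2 higher (Hoxc4, Meis2) and 1 lower (Irx2). With an intensity trend and robust fit 2 were called higher (Hoxc4, Meis2) and 2 lower (Irx2, Eya2). Leaving out each array in turn gave 0 to 1 members called higher, the 1 being Hoxc5 without duct replicate 1. Over all genes the counts were 103 higher and 15 lower as reported, 250 higher and 46 lower with median centring, 66 higher and 8 lower with a pseudocount of 1, 192 higher and 81 lower with 64, 36 higher and 1 lower with no filter, 254 higher and 149 lower with the lowest 60% left out and 582 higher and 394 lower with the trend and robust fit. Without 1 array they ran from 0 to 39 higher and 0 to 1 lower, with 0 on both sides without basal replicate 1 or 2, where 685 and 927 were higher and 760 and 876 lower at an unadjusted p under 0.05. With the replicate number as a block, limma called 0 higher and 0 lower; 645 were higher and 913 lower before adjustment (p under 0.05). Deviations of same-numbered arrays correlated at -0.08 and -0.04 across genes, and the numbers were not taken as pairs. The deviations of the 2 basal arrays mirror each other, so this check cannot show whether samples were paired.

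The median of the members was -0.51 as reported, -0.35 with quantile normalization, -0.31 with median centring and -0.58 to -0.24 without 1 array. Of 383 refitted member values, 10 changed sign, all in 6 genes: Pax9 (0.00606 with median centring, 0.23 without basal replicate 1, -0.63 without replicate 2), Hoxa3 and Eya1 (-0.53 and -0.53 with the mean of probe sets), Hoxa4 (-0.0585 with that mean, -0.37 without cross-hybridising probe sets, -0.0323 to 0.53 without 1 array), Irx3 (-0.47 to 0.80 without 1 array, -0.0836 without duct replicate 1) and Hoxb7 (-1.13 to 2.12 without 1 basal array). The cause was not tested. Many of the 383 values could not change sign, since the filter and variance-model alternatives left each difference as reported. The replicate block gave the same differences as leaving out duct replicate 3. The count of sign changes is therefore no measure of how stable the directions are. Members above background on all 5 arrays numbered 20, 21 against the second brightest Bacillus control and 18 against 2 times the brightest. Members near the controls, such as Hoxb7 and Barx1, had too little signal over background for a difference to be read. Where leaving an array out left a single basal one, its spread was taken from the duct arrays.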
